A study of Mus musculus with 8 samples.

Results

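Cytosolic ribosomal protein genes encode the proteins of the small (40S) and large (60S) ribosomal subunits, and 88 of the 17631 genes in the deposited mouse molar table carry such a name. They were chosen by gene symbol alone: any Rps or Rpl number, with or without the paralog suffixes a, l and x, together with Rplp0, Rplp1, Rplp2, Rpsa and Fau. Of the 88 genes, 36 belong to the small subunit and 52 to the large subunit. GENCODE M21 annotates 83 as protein-coding and 5 as pseudogenes, namely Rps3a2, Rps3a3, Rps4l, Rpl6l and Rpl32l. It lists 85 protein-coding genes under such symbols, of which 83 are in the table, while Rpl3l and Rpl10l were not analysed here.

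The libraries held RNA from the apical, root end of lower first molars of C57BL/6 mice at postnatal day 7.5, when the root is forming. The control group was Runx2fl/fl, so both Runx2 copies could be deleted but no recombinase was present. The mutant group was Gli1-CreERT2;Runx2fl/fl, in which the recombinase is made where the hedgehog target Gli1 is active and works only after tamoxifen. The labels of both groups carry the same treatment protocol, an injection of 1.5 mg tamoxifen for every 10 g of mouse on postnatal day 3.5. Each group had 4 libraries. Whether a library is 1 animal or a pool is not in the labels. The recombinase came with the mutant genotype alone, so its own effect and that of Runx2 loss cannot be told apart. The table gives 1 mean per gene and group and no values per library, so neither a spread between libraries nor an overlap of the groups can be stated for any gene, and depth is unknown. The p-values are the authors', and the model that gave them is not given in the sources used here. Differences between libraries may be in part technical.

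A ribosome is built in the nucleolus from ribosomal RNA and one copy of nearly every ribosomal protein, so cells keep the output of these genes in close balance. In vertebrates their mRNAs begin with a C followed by a pyrimidine tract, the 5′ terminal oligopyrimidine (TOP) motif, through which mTOR and the RNA-binding protein LARP1 adjust translation and mRNA stability. Growing and matrix-secreting cells, among them ameloblasts, odontoblasts and osteoblasts of the molar, use large numbers of ribosomes. In humans, loss of a single copy of certain ribosomal protein genes causes Diamond-Blackfan anaemia, in which red cell production fails and skeletal defects are frequent.

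Ribosomal protein genes had slightly lower means in mutant molars with little variation among them. The samples were whole tissue, so fewer cells of a type and less RNA per cell cannot be told apart. All gene means, folds and p-values are those of the authors' deposited table, which gives p-values adjusted over all its genes, and log2 ratios (mutant mean over control mean) were computed from it. A lower mean in the mutant was found for 84 of the 88 genes, where it was found for 49.4% of all genes. Among 96 other protein-coding genes of like transcript length and GC content with a higher mean of at least 100, it was found for 88.5%. The median log2 ratio of the 88 genes was -0.24, a mean 1.18-fold lower, while the median over all 17631 genes was 0.00. The quartiles of the 88 genes were -0.29 and -0.18, and those of all genes -0.16 and 0.18. They lay 0.11 apart in the 88 genes and 0.35 apart in all genes. The distance was 0.12 in genes of ribosomal RNA processing and assembly and in host genes of small nucleolar RNAs. In mitochondrial ribosomal protein genes it was 0.15 and in proteasome genes 0.20. A narrow spread was thus not particular to the members. Only Fau passed an adjusted p of 0.05, so 1 of 88 members passed, where 0.788% of all genes passed, 0.318% as lower and 0.471% as higher. A share of 1 in 88 is too small to set apart from that background. At an unadjusted p under 0.05, 60 of the 88 (68.2%) were lower and none was higher, against 9.4% of all genes lower and 9.89% higher by the same rule. At an adjusted p under 0.10, 14 members were lower and none was higher, against 1.63% of all genes lower and 3.64% in either direction. Ribosomal protein genes tend to vary together, so 60 such p-values are not 60 independent observations.

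**Figure D1:**
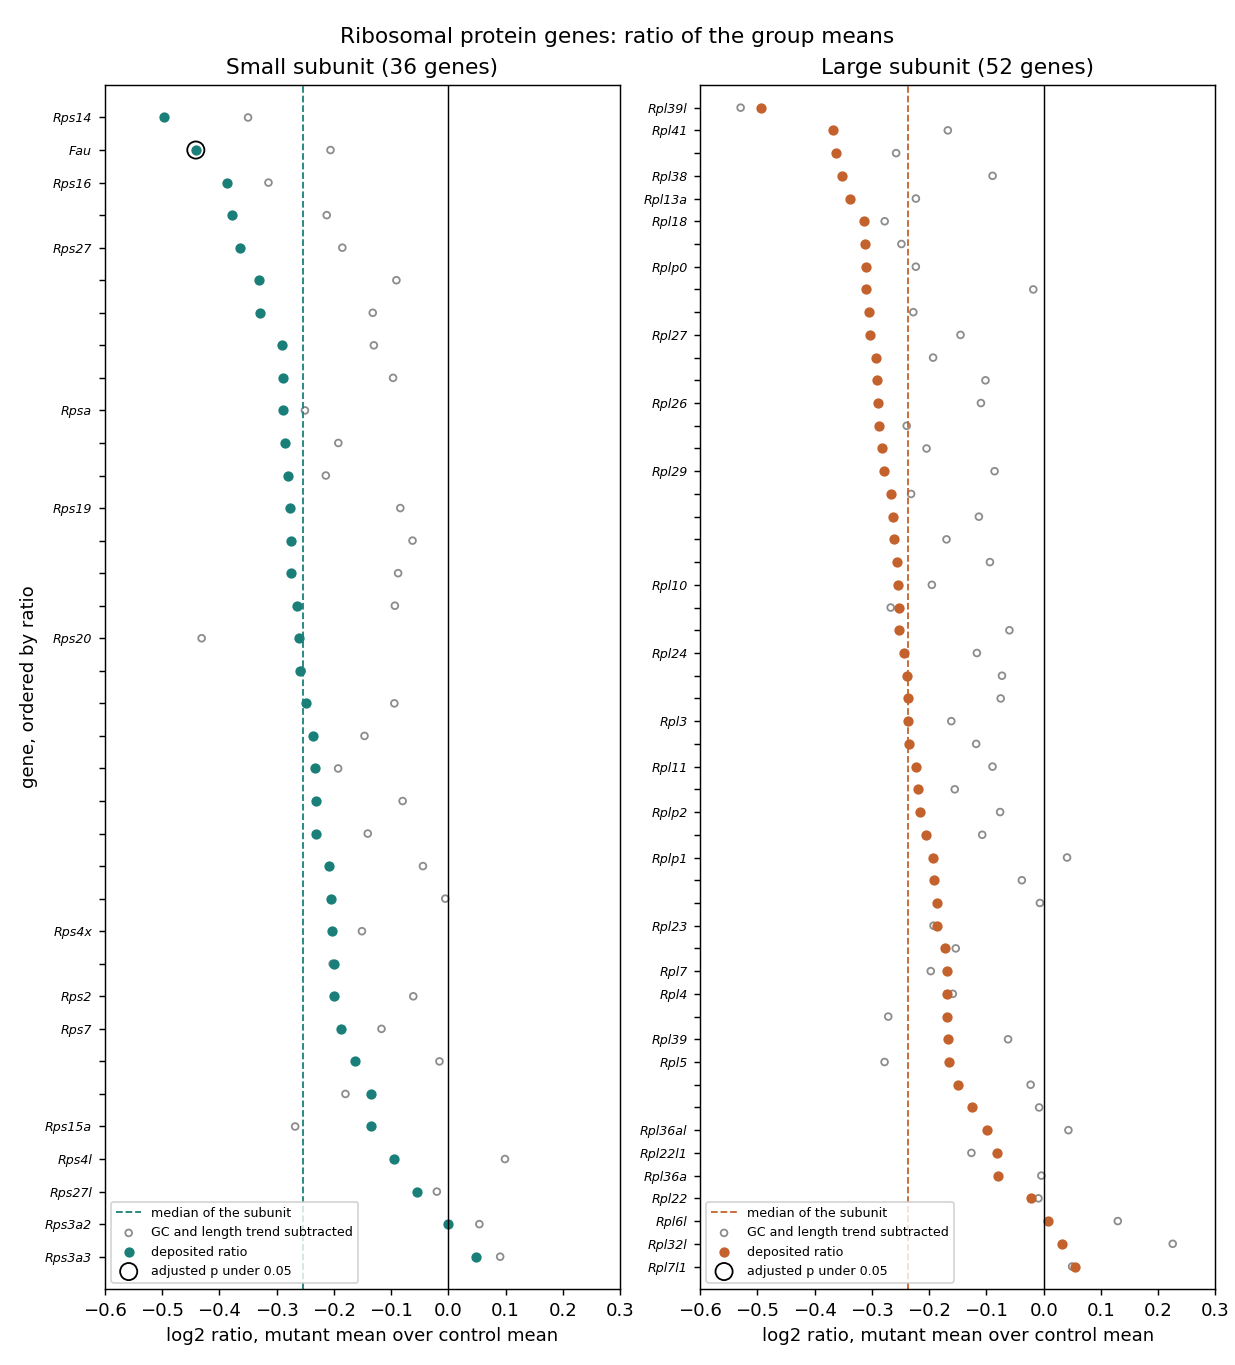
Log2 ratio of the mutant to the control group mean (x axis) for each of the 36 small and 52 large subunit genes, ordered by ratio on the y axis, with labels for genes described in the text. Filled points are the deposited ratios, open grey points the ratios once the trend on transcript length and GC content was taken off, dashed lines the subunit medians, and the ringed point is Fau, the gene past an adjusted p of 0.05. Of the 88 filled points 84 lie left of 0, and most open points lie nearer to 0.

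The 36 genes of the small subunit had a median log2 ratio of -0.25, with 35 at a lower mean in the mutant. Fau (chromosome 19, 6057844 to 6059524, plus strand, GRCm38) encodes a ubiquitin-like protein fused to the small subunit protein eS30. Its mean was 293 in mutant and 398 in control molars, so it fell 1.36-fold (the authors' unadjusted p = 9.53e-05, adjusted p = 0.0391). The trend of ratios on transcript GC content and length was subtracted for all genes, and separately that of z values from the authors' p-values. Fau's log2 ratio then went from -0.44 to -0.21. Its adjusted p, taken from the z values, went to 0.312, which ended the call. The lowest ratio belonged to Rps14, a protein near the platform of the subunit, with 476 in mutant and 672 in control molars, 1.41-fold lower (the authors' adjusted p = 0.0923). Rps16, a protein in the head of the subunit, had means of 530.1 and 693 (the authors' adjusted p = 0.0742). Rps27 stood at 305 in mutant and 393 in control molars (the authors' adjusted p = 0.0903).

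The 3 small subunit genes with the highest deposited means did not pass. Rpsa, whose product is also known as the laminin receptor precursor, stood at 998 in mutant and 1219.6 in control molars (log2 ratio -0.29, the authors' adjusted p = 0.145). The X-linked Rps4x had means of 661 and 761 (log2 ratio -0.20, the authors' adjusted p = 0.214), and Rps2 had 657 and 754 (log2 ratio -0.20, adjusted p = 0.271). Rps15a was the protein-coding gene nearest to equal means apart from the paralog Rps27l, at 184 and 202 (log2 ratio -0.13, the authors' adjusted p = 0.389). Levels are not compared between genes, because the sources used here do not say whether the deposited means are scaled by gene length.

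The 52 genes of the large subunit had a median log2 ratio of -0.24, with 49 at a lower mean in the mutant, and none passed an adjusted p of 0.05. Medians of the small and large subunits differed by -0.02 (small minus large), where the quartiles lay 0.09 apart in the small and 0.12 apart in the large subunit. In the authors' deposited table the means of the small subunit summed to 0.69 of those of the large subunit in the mutant, and to 0.698 in the control. Rpl41, the smallest ribosomal protein, stood at 556 in mutant and 718 in control molars (1.29-fold lower, the authors' adjusted p = 0.127). Rpl13a had means of 684 and 865 (the authors' adjusted p = 0.117), and Rpl18 of 345 and 429 (adjusted p = 0.0836). Rpl13a is also known for its role outside the ribosome in silencing inflammatory mRNAs. Rpl4, which reaches into the exit tunnel for the growing protein chain, had 828 and 930.2 (log2 ratio -0.17, the authors' adjusted p = 0.341).

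**Figure D2:**
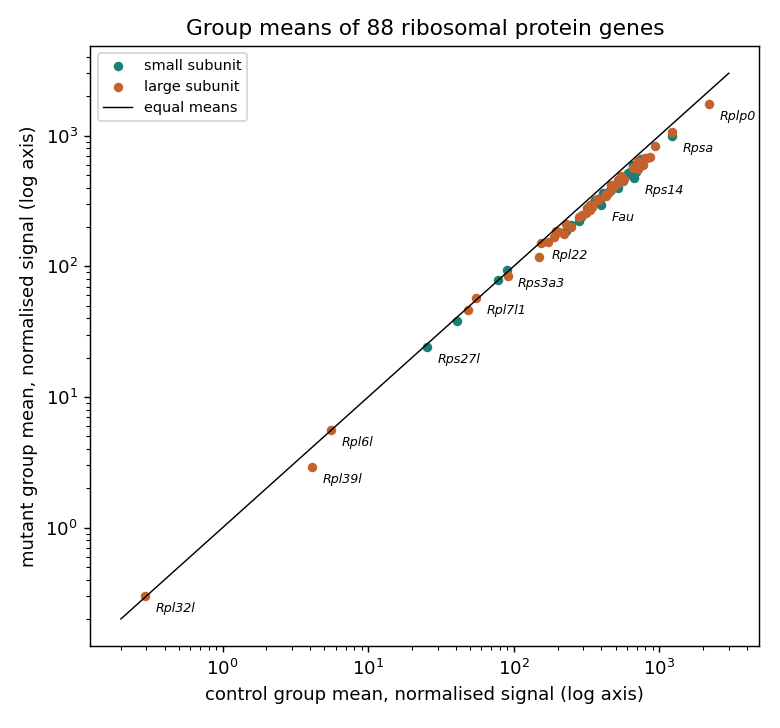
Control group mean (x axis) against mutant group mean (y axis), both in normalised signal on log axes, for the 88 ribosomal protein genes, with the line of equal means. Most points lie just under the line, and the rows of pseudogenes and paralogs such as Rps3a3, Rpl6l and Rpl7l1 lie on or close to it.

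The 3 stalk proteins recruit elongation factors to the large subunit. Rplp0, the base of the stalk and the member with the highest deposited mean, stood at 1757 in mutant and 2179 in control molars (log2 ratio -0.31, the authors' adjusted p = 0.17). Its partners Rplp1 (1063 and 1215, the authors' adjusted p = 0.314) and Rplp2 (456 and 529, adjusted p = 0.188) had log2 ratios of -0.19 and -0.22. All 3 means were lower, as were those of 82 of all 83 protein-coding members, and none passed. Subtraction of the GC and length trend left Rplp0 at -0.22 and Rplp2 at -0.08, and took Rplp1 to 0.04, on the other side of 0.

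Rpl5 and Rpl11 form a particle with the 5S ribosomal RNA that binds MDM2 and stabilises p53 when ribosome assembly fails, and Rpl23 and Rpl26 also bear on that pathway. None of the 4 passed. Rpl26 had 345 in mutant and 421 in control molars (the authors' adjusted p = 0.0943), Rpl11 449 and 524 (adjusted p = 0.29), Rpl23 455 and 518 (adjusted p = 0.236), and Rpl5 297 and 332 (adjusted p = 0.323). Among 20 p53 target genes, 10 means were lower and 10 higher, and 1 gene passed. That gene was Zmat3, an RNA-binding growth suppressor, which rose from 23.3 to 29.8 (the authors' adjusted p = 0.0484). With the GC and length trend subtracted its log2 ratio went from 0.35 to 0.24, and none of the 20 passed. Trp53inp1 (52.9 in mutant and 38.3 in control molars, the authors' adjusted p = 0.0754) and Phlda3 (60.2 and 70.6, adjusted p = 0.156) did not pass. The 20 targets had a median log2 ratio of 0.02.

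Of the 6 members chosen for skeletal or patterning phenotypes in mutant mice, all had lower means and none passed. Lower means were also found for 82 of all 83 protein-coding members. Rpl38, whose loss alters the axial skeleton, stood at 117 in mutant and 149 in control molars (1.28-fold lower, the authors' adjusted p = 0.0646), and its log2 ratio went from -0.35 to -0.09 when the GC and length trend was subtracted. Rpl29, whose loss reduces body and bone growth, had 284 and 344 (the authors' adjusted p = 0.313), and Rpl24, the gene of the Belly spot and tail mutant, 248 and 294 (adjusted p = 0.127). Rps19 had 238 and 288 (the authors' adjusted p = 0.112), Rps20 383 and 459 (adjusted p = 0.133) and Rps7 362 and 412 (adjusted p = 0.403).

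The 19 members whose human counterparts are mutated in Diamond-Blackfan anaemia all had lower means in the mutant and none passed (median log2 ratio -0.25). Of all 83 protein-coding members 82 were lower, also with a median of -0.25, so these 19 did not stand out. Lowest by p-value were Rpl18, given above, Rpl27 (200 in mutant and 246 in control molars, the authors' adjusted p = 0.0841) and Rps27. In the same table the 7 erythroid markers had lower means in the mutant as well. Their means summed to 426 in mutant and 946 in control molars, and the alpha-globin gene Hba-a1 passed (92.5 and 223, the authors' adjusted p = 0.0484). With the GC and length trend subtracted this call ended at an adjusted p of 0.336, while its log2 ratio went from -1.27 to -1.07. The part of red cell RNA in the ribosomal protein values was not tested.

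Paralogs of ribosomal protein genes, which encode relatives of a ribosomal protein and in some cases are used in restricted tissues, did not all have the ratio of their main gene. Rps27l, a p53-inducible copy of Rps27, had a log2 ratio of -0.05 (24.3 in mutant and 25.2 in control molars) where Rps27 had -0.36. Rpl7l1, a relative of Rpl7, was at 0.05 (57.0 and 54.9) where Rpl7 was at -0.17 (635 and 714). It was the 1 protein-coding member by name with a higher mean in the mutant, and its protein need not be part of the ribosome. Rpl39l, a copy of Rpl39 known from the male germ line, was at -0.49 with the low means of 2.92 and 4.11 (the authors' adjusted p = 0.156), where Rpl39 was at -0.17 (182 and 204). These 3 differences, paralog minus main gene, were 0.31, 0.22 and -0.33 on the log2 scale and were not tested, because no values per library were analysed here. With the GC and length trend subtracted, Rps27l stood at -0.02 and Rps27 at -0.19. Rpl7l1 then stood at 0.05 and Rpl7 at -0.20, and Rpl39l at -0.53 and Rpl39 at -0.06.

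The other protein-coding pairs, Rpl22 with Rpl22l1 and Rpl36a with Rpl36al, differed by -0.06 and -0.02. Rpl22, which binds RNA and is needed by developing lymphocytes, stood at 152 in mutant and 154 in control molars (log2 ratio -0.02). Its copy Rpl22l1 had 46.1 and 48.8 (log2 ratio -0.08). The X-linked Rpl36a had 186 and 196 and its autosomal copy Rpl36al 84.6 and 90.7, with log2 ratios of -0.08 and -0.10. Rpl22, Rpl22l1, Rpl36a and Rpl36al, with adjusted p-values from 0.564 to 0.944, were thus the protein-coding large subunit genes nearest to equal means besides Rpl7l1. For the remaining main genes the paralog was not analysed, and Rpl10 had means of 437 and 521 (the authors' adjusted p = 0.121) and Rpl3 of 578 and 680.4 (adjusted p = 0.21).

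The 5 members annotated as pseudogenes lay around 0, with 2 lower and 3 higher means and a median log2 ratio of 0.01. Rps3a3 had 92.9 in mutant and 89.8 in control molars, Rps3a2 78.5 in both groups, and Rps4l 37.9 and 40.5. The scarce Rpl6l (5.59 and 5.56) and Rpl32l (0.300 and 0.293) completed them. Their parent genes Rps3a1, Rps4x, Rpl6 and Rpl32 had log2 ratios of -0.23, -0.20, -0.22 and -0.26. The pseudogene minus parent differences were 0.28 for Rps3a3, 0.23 for Rps3a2, 0.11 for Rps4l, 0.23 for Rpl6l and 0.30 for Rpl32l. Reads of such near-identical copies can be divided between rows by the counting, which the sources used here do not describe, so these values and those of their parent genes are uncertain.

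Promoter sequences near the start sites of members with low and with near-equal ratios are shown because the members were nearly all lower together. RefSeq windows on GRCm38.p6 were found for 64 of the 88 members. Each line below runs 5′ to 3′ on the gene's strand, from 80 bases before the RefSeq start to 15 bases counted from it. Capitals mark a core motif of ETS-family factors (CCGGAA or its reverse complement) and, at the start itself, a C with at least 4 pyrimidines after it. The first 4 had log2 ratios of -0.44, -0.39, -0.36 and -0.35, and the last 4 of -0.02, -0.08, -0.05 and 0.05. The windows are Fau at chr19:6057867-6057961 (plus), Rps16 at chr7:28350609-28350703 (plus), Rps27 at chr3:90213634-90213728 (minus), Rpl38 at chr11:114668500-114668594 (plus), Rpl22 at chr4:152325646-152325740 (plus), Rpl36a at chrX:134585574-134585668 (plus), Rps27l at chr9:66946006-66946100 (plus) and Rpl7l1 at chr17:46782642-46782736 (minus).
Fau: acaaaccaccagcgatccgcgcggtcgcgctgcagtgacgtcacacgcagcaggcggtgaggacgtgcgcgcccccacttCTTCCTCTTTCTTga
Rps16: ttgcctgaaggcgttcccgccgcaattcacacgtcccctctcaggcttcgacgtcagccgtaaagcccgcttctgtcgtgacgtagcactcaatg
Rps27: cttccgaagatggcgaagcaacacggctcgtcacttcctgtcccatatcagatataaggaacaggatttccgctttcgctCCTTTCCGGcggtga
Rpl38: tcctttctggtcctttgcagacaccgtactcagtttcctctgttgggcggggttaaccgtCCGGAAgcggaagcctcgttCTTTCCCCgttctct
Rpl22: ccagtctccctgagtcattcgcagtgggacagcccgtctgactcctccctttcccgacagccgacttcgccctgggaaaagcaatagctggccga
Rpl36a: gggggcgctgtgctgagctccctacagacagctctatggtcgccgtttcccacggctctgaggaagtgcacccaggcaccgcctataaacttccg
Rps27l: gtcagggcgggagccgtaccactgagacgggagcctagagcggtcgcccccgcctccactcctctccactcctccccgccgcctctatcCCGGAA
Rpl7l1: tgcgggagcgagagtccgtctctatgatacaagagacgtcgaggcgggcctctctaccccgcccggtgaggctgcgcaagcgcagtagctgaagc

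Fau, Rps27 and Rpl38 start with a C and a pyrimidine run of 13, 7 and 8 bases in all, while Rps16, with a ratio as low, and the 4 genes near equal means do not at the RefSeq start. In Rps27 the run overlaps the ETS core. Such a start was found in 15 of the 64 members with a window (23.4%) and in 3.01% of the 27025 genes in the RefSeq table. By the transcript starts of GENCODE M21 the same rule was met by 9 of the 83 protein-coding members (10.8%) and 2.27% of all protein-coding genes listed. The 15 had a median log2 ratio of -0.26 and the other 49 of -0.25. RefSeq starts are the annotated transcript ends and may differ from the sites used in the molar.

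Other motifs were searched on both strands of the whole window, 300 bases per start. Shares are set beside the 27025 RefSeq genes, not all of which are in the deposited table. The ETS core CCGGAA was in 54.7% of the 64 members and 16.7% of the RefSeq genes, and the YY1 core AAGATGGC in 10.9% and 3.19%. The pyrimidine motif CTTTCC, whose last 4 letters can overlap the reverse complement of the ETS core, was in 51.6% and 29.3%. The TATA box TATAAA was in 12.5% of the members and 15.7% of the RefSeq genes. The RUNX core TGTGGT, the motif of the family of the deleted factor, was in 6 of 64 members (9.38%) and 18.9% of the RefSeq genes. Members with and without it both had a median log2 ratio of -0.25. The 8 members with a TATA box had a median of -0.12 and the 56 without of -0.26, while the 7 with a YY1 core were at -0.13 and the 57 without at -0.25. These are matches of letters and were not tested.

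Lower ratios of short, GC-rich transcripts ran through the whole comparison, and ribosomal protein transcripts are short. The 88 members had a median transcript length of 819 nt against 2710.0 nt over all genes, with a median GC content of 51.3% against 50.4%. Among 13044 other protein-coding genes, those whose higher mean reached 1, Spearman's rho of the log2 ratio was -0.45 with GC content and 0.29 with log2 length. Across the 83 protein-coding members it was -0.42 and 0.15. These are correlations across genes of 1 comparison, and genes are not independent replicates. The closest comparison took transcripts up to 1500 nt with a GC content from 48% to 60%. There 58 members had a median log2 ratio of -0.26 and all were lower, while 1249 other genes had -0.12 with 74.5% lower. The 96 of these others whose higher mean was at least 100 had a median of -0.17 with 88.5% lower. In the length bins up to 3000 nt and in each GC bin the members' median lay below that of the other genes. Both bins of longer transcripts hold 1 member each, Rps20 and Rps15a, and give no comparison. Of transcripts from 500 to 750 nt, 22 members had a median log2 ratio of -0.26 and 221 others -0.14. Between 750 and 1000 nt the medians were -0.24 for 23 members and -0.11 for 391 others. In the lowest GC bin, up to 44%, the 5 members stood at -0.17 and the 2271 others at 0.18.

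When the trend was subtracted for all genes, the median log2 ratio of the 88 members went from -0.24 to -0.12, 80 were below 0 and none passed (0.222% of all genes did), with a lowest adjusted p of 0.0569 for Rps20. That value rests on the 3706 nt transcript taken for Rps20. The transcripts taken for Rps15a (5179 nt) and Rpl18 (2989 nt) are also far longer than those of most members, so the subtracted values of these 3 genes are uncertain. At an unadjusted p under 0.05, 21 members were lower and none higher after the subtraction, where 5.16% of all genes were lower by that rule. Length and GC content thus moved with the result, and their part in the measured differences was not tested beyond this subtraction.

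**Figure D3:**
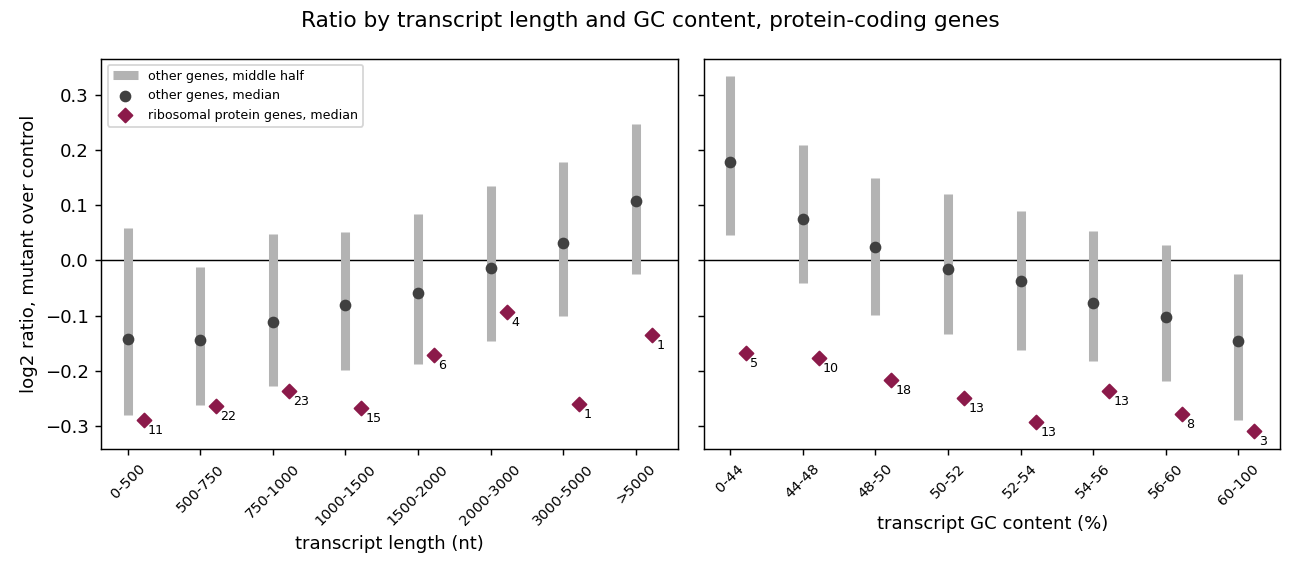
Median log2 ratio (y axis) of ribosomal protein genes (diamonds, with their number) and of the other protein-coding genes whose higher mean reached 1 (dark points, with their quartiles as grey bars) by transcript length (left) and transcript GC content (right). Medians of the other genes go from -0.14 in the shortest transcripts to 0.11 in the longest, and the diamonds lie lower in each bin, of which the 2 longest length bins hold 1 ribosomal protein gene each.

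Rack1, a scaffold on the small subunit that the pattern of gene names leaves out, stood at 781 in mutant and 986 in control molars (log2 ratio -0.34, the authors' adjusted p = 0.106). Rps27a, the member fused to ubiquitin itself, had 325 and 382 (log2 ratio -0.23, the authors' adjusted p = 0.226).

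By the deposited ratios, other lists of translation genes had medians nearer to 0. Of 15 elongation factors and further genes with TOP mRNAs, 13 had lower means (median log2 ratio -0.15) and 1 fell, the initiation factor gene Eif3f, from 341 to 266 (the authors' adjusted p = 0.0484). Eef1b2, an exchange factor for eEF1A, had 329 in mutant and 396 in control molars (the authors' adjusted p = 0.16), and Eif3h 205 and 242 (adjusted p = 0.163). Of 23 subunits and regulators of eIF3 and eIF4, 16 were lower (median -0.10) and Eif3f, which stands in both lists, was the 1 that passed. Eif4ebp1, the translation repressor that mTOR inactivates, had 18.6 and 24.4 (the authors' adjusted p = 0.0951), and Eif3k 89.9 and 109 (adjusted p = 0.11). With the trend subtracted Eif3f had a log2 ratio of -0.35 against -0.36 before, but no gene of either list passed. The median of the elongation and TOP list was then -0.12 and that of the eIF3 and eIF4 list -0.10, where the 88 members had -0.12.

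No gene in the lists of ribosome production and its regulation passed. Of 14 RNA polymerase I genes, 8 were lower and none passed (median log2 ratio -0.02), with Polr1d at 45.8 in mutant and 52.8 in control molars (the authors' adjusted p = 0.17), Polr1c at 19.1 and 21.9 (adjusted p = 0.184) and Znrd1 at 10.1 and 11.8 (adjusted p = 0.266). Of 40 genes of ribosomal RNA processing and ribosome assembly, 30 were lower and none passed (median -0.07). Eif6, which keeps the subunits apart, had 38.7 and 47.6 (the authors' adjusted p = 0.11), the snoRNP gene Nhp2 32.0 and 39.9 (adjusted p = 0.218), and Utp20 a higher 14.4 against 12.3 (adjusted p = 0.225). Of 20 regulators of mTOR and TOP mRNAs, 12 were lower and none passed (median -0.02). The mTOR inhibitor gene Deptor had 6.76 and 5.02 (the authors' adjusted p = 0.224) and Mycn a log2 ratio of 0.29 (adjusted p = 0.272).

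Many host genes of small nucleolar RNAs are TOP genes whose spliced RNA is unstable. By the deposited ratios, the host genes had the median nearest to that of the ribosomal proteins. All 10 measured of the 12 listed had lower means (median log2 ratio -0.25) and none passed. With the GC and length trend subtracted 8 were below 0, and the median of the 10 was -0.25, where that of the 88 members was -0.12. The host genes were mostly scarce, with a median mean of 5.36 in mutant and 6.13 in control molars. Snhg6 had 6.62 in mutant and 8.83 in control molars (the authors' adjusted p = 0.0837), Snhg8 8.85 and 10.8 (adjusted p = 0.135), and Snhg18 53.4 and 66.5 (adjusted p = 0.172). Both other large complexes examined had medians nearer to 0. Mitochondrial ribosomal proteins (78 genes) had a median of -0.08 with 60 lower, and proteasome subunits (38 genes) a median of -0.08 with 27 lower. None of them passed. Lowest by p-value were Mrps34 (29.0 and 36.7, the authors' adjusted p = 0.0914), Mrpl52 (47.8 and 58.0, adjusted p = 0.103) and Mrpl54 (30.3 and 38.4, adjusted p = 0.114), and among proteasome genes Psmb3 (46.6 and 58.1, adjusted p = 0.114), Psmb5 (58.9 and 69.4, adjusted p = 0.122) and Psmd8 (98.3 and 113, adjusted p = 0.139). Differences between these lists and the ribosomal proteins were not tested.

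**Figure D4:**
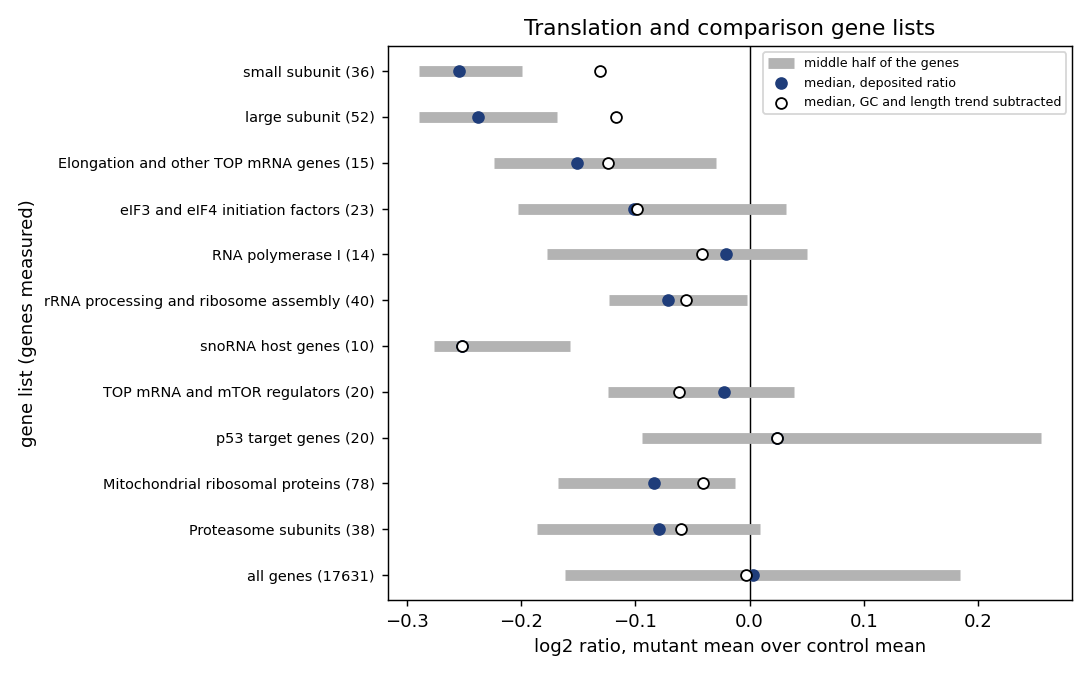
Log2 ratio of the mutant to the control group mean (x axis) for the 2 subunits, related gene lists and all genes (y axis, genes measured in brackets). Filled points are medians, bars the quartiles of each list, and open points the medians once that trend on GC content and length was taken off. The filled points of both subunits and the snoRNA host genes lie from -0.25 to -0.24, and that of all genes at 0.00.

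The 88 members held 3.58% of all deposited signal in mutant and 3.88% in control molars. The summed means over all genes were themselves lower in the mutant, 955256 against 1050684. The gene with the highest mean, the enamel matrix gene Amelx, had 112174 and 174946 (the authors' adjusted p = 0.457). Without Amelx the shares were 4.06% and 4.66%, and without the 10 genes outside the members with the highest means they were 5.04% and 5.97%. Rescaling both groups to equal sums adds 0.14 to every log2 ratio, all genes included. The members' median then became -0.10 with 74 of 88 below 0, while their distance from the median of all genes stayed at -0.24.

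Members lie on 20 chromosomes, with 14 members on chromosome 7. The 4 X-linked members Rpl10, Rpl36a, Rpl39 and Rps4x had a median log2 ratio of -0.18. In the same table the Y-linked Ddx3y was 1.98-fold higher in the mutant (25.6 and 12.9, the authors' adjusted p = 0.0486). The Y-linked Kdm5d, Uty and Eif2s3y were 1.87-fold, 1.84-fold and 1.66-fold higher (the authors' adjusted p = 0.167, 0.104 and 0.0848). Xist was 1.22-fold lower (the authors' adjusted p = 0.457). The part of a difference in sex between the groups was not tested.

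The label of the tissue was checked against markers. The dentin gene Dspp (7360.0 in mutant and 7714 in control molars) and the enamel genes Amelx and Ambn (53601 and 72752) were abundant. Means of 6 of 7 odontoblast, 6 of 7 ameloblast, 6 of 6 osteoblast and 8 of 8 skeletal muscle markers were lower in the mutant. Summed means were 53997 and 54919.9 for odontoblast, 178088 and 262615 for ameloblast, 2571 and 3931 for osteoblast and 4.09 and 7.42 for muscle markers. No odontoblast, ameloblast or muscle marker passed. Amelx and Ambn made up most of the ameloblast sums, and the ameloblast marker that was not lower, Mmp20, had 533 and 531. Muscle markers were scarce, with a median mean of 0.41 in mutant and 0.85 in control molars. The osteoblast genes Sp7 (118 and 155, the authors' adjusted p = 0.0447) and Bglap (1252 and 2234, adjusted p = 0.0484) passed, and the targeted gene Runx2 stood at 65.1 and 106 (adjusted p = 0.0646). The table does not separate reads of the deleted part of Runx2 from the rest of the gene. All 21 cell cycle genes had higher means in the mutant, and 2 passed, Cenpf (19.3 and 10.9, the authors' adjusted p = 0.0318) and Mki67 (48.6 and 32.2, adjusted p = 0.0486). With the GC and length trend subtracted these 4 calls ended, at an adjusted p of 0.113 for Sp7, 0.389 for Bglap, 0.269 for Cenpf and 0.264 for Mki67. Their log2 ratios went from -0.39 to -0.34, -0.84 to -0.61, 0.83 to 0.57 and 0.59 to 0.42 in that order. The part of these cell types in the ribosomal protein values was not tested.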

How the data were processed

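RNA from 4 control and 4 mutant libraries was compared in 1 table of 17631 genes. The submitters' processing notes list STAR 2.6.1d, Partek and the build mm10 with no role for any. How reads were counted and normalised, on which annotation, and which model gave the p-values is not given in the sources used here. The deposited values are least-squares group means per the file headers, and were used as a normalised signal. The deposited column of totals equals 4 times the sum of both means for all 17631 genes (relative tolerance 1e-06) and so is no read count. The deposited ratio is mutant over control mean, and the deposited signed fold change, a score with no values between -1 and 1, restates it. The p-value is the authors', and the deposited adjusted p equals its Benjamini-Hochberg adjustment for all genes. With no values per library, no count test, standard error or replicate check was possible, and the authors' adjusted p under 0.05 was the call.

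Symbols matched GENCODE M21 (GRCm38, the assembly of mm10) for 17562 genes (99.6%). Length and GC content came from 1 transcript per gene, protein-coding and APPRIS principal first. Trends on them were fitted with smooth terms (mgcv 1.9.3, R 4.3.3) on 13127 protein-coding genes whose higher mean reached 1. Separate trends were fitted to the log2 ratio and to the signed z, the normal score of the authors' p-value with the ratio's sign. They took 19.5% of the variance of the log2 ratio and 27.9% of that of the signed z. P-values after the subtraction come from the remaining z and are not tests of the subtracted ratios. The shift in z takes no account of the error of each gene, so a call can end while most of a ratio remains. A check on simulated data planted the same fitted trend of z on shuffled values, so it bears only on the working of the subtraction. It cannot tell a technical trend from a real change. A real change that follows length or GC content is removed with the trend.

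The members, gene lists and tests were chosen with earlier results of these data known. Values are given for members past the threshold, the 5 highest and 5 lowest ratios, the 3 highest and 2 lowest means per subunit, paralogs, and stalk, 5S and skeletal lists (42 members), and for up to 3 genes by p-value of each other list. Motifs and pseudogene rows were added after the values were seen. Motif shares are not tests. A few named genes are left out of the text and not reported here.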

Additional observations from a re-analysis of the deposited data

How the results depend on the processing

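No paired analysis was possible because the table holds group means only, and leaving out each replicate could not be run for the same reason. A median or count was taken as unchanged within 1.5 times its first value. The median log2 ratio of the members (-0.24), of the small (-0.25) and of the large subunit (-0.24) stayed within that range with a pseudocount of 1, with the 85 members whose higher mean was at least 10, without the scarcest members, centred on all genes and, added after the values were seen, without the 5 pseudogenes. With group means rescaled to equal sums they were -0.10, -0.12 and -0.10. With the GC and length trend subtracted they were -0.12, -0.13 and -0.12, and -0.13 for all members when the trend was fitted without them. Between 74 and 84 members were lower in all settings. The count past the threshold was 1, but 14 at an adjusted p under 0.10 (1.63% of all genes lower by that rule), 60 at an unadjusted p under 0.05, and 0 with the trend subtracted under either fit. At an unadjusted p under 0.05 after the first subtraction 21 members were lower and 0 higher. The log2 ratio of the summed shares was -0.12, but -0.24 without the 10 most abundant other genes and -0.20 without Amelx. Of 42 named members, the sign reversed in 8 under equal sums: Rpl36al (0.0379), Rpl22l1 (0.0554), Rpl36a (0.0579), Rpl22 (0.11), Rps15a (0.00258), Rps4l (0.0426), Rps27l (0.0828) and Rps3a2 (0.14). It reversed in 4 under the subtraction: Rpl36al (0.0431), Rplp1 (0.0408), Rps4l (0.10) and Rps3a2 (0.0542). Of the others, 31 under equal sums and 24 under the subtraction moved by over 1.5 times, such as Rpl41 (-0.37 to -0.17) and Rps19 (-0.28 to -0.08) under the subtraction, and 3 and 14 did not. The cause was not tested. Depth is unknown, and members with means under 10, Rpl39l, Rpl6l and Rpl32l, are the least certain.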

Other observations

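Outside the members, 108 rows named as pseudogenes of cytosolic ribosomal protein genes (symbols ending in ps, in all but Rpl39-ps and Rps4x-ps with a number) were listed in the authors' deposited table, most of them scarce, with a median mean of 1.41 in mutant and 1.98 in control molars. Of these, 85 had a lower mean in the mutant (median log2 ratio -0.21, quartiles -0.39 and -0.04), and the median was -0.06 with the GC and length trend subtracted. Rpl9-ps4 was the 1 row to pass, with 3.39 in mutant and 5.42 in control molars (the authors' adjusted p = 0.0417), and this call ended at an adjusted p of 0.156 with the trend subtracted. Rpl28-ps1 had 29.4 and 37.9 (the authors' adjusted p = 0.0646), where Rpl28 itself had 453 and 555 (adjusted p = 0.0967), and Rpl17-ps3 had a log2 ratio of -0.54 (adjusted p = 0.0808), where Rpl17 had 465 and 567 (adjusted p = 0.167). Reads of these rows and of their parent genes may be shared, so they are no independent measurement of the members.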
